A study of Homo sapiens with 4 samples.

Results

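The genes described here encode the translation initiation factors, the proteins that bring the small ribosomal subunit to the start codon of an mRNA and then join the large subunit to it. They were taken by name from a deposited table of RNA levels in Jurkat cells with and without knockdown of ARIEL, a long non-coding RNA. Of the 22361 rows of that table, 56 have a name that starts with EIF1 to EIF6. Leaving out 4 names that start with EIF2AK (kinases) and 1 row of chromosome Y gave 51 members, with 0 pseudogenes among them by gene class. A mean level of at least 10 on the linear scale was needed for testing, which 50 of the 51 members had. EIF4E1B, a cap-binding homologue of oocytes, was the member below it, at -1.72 in each library.

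Initiation in animal cells runs through a chain of named complexes. The factor eIF2 carries the initiator tRNA and GTP to the small subunit, and its exchange factor eIF2B reloads it with GTP afterwards. Stress kinases phosphorylate the alpha subunit of eIF2, which then blocks eIF2B, and most protein synthesis drops while a few mRNAs such as that of ATF4 are translated more. The large scaffold eIF3 holds the small subunit and its partners together. The cap-binding complex eIF4F, made of eIF4E, eIF4G and the helicase eIF4A, recruits the mRNA, and the 4E-binding proteins block it when mTOR signalling is low. Dividing leukaemia cells depend on these steps for their protein supply.

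The knockdown libraries were 2 from cells given shRNA against ARIEL, and the control libraries were 2 from cells given shRNA against GFP, a gene absent from human cells. How many shRNAs were used against ARIEL is not stated in the sources used here, so loss of ARIEL and other effects of an shRNA cannot be told apart. All 4 came from Jurkat, an established human line from a T-cell acute lymphoblastic leukaemia, infected with lentivirus and collected 72 h later, after at least 36 h of selection in puromycin at 0.7 µg/ml. The question was which RNAs change when ARIEL is depleted. Levels are given as regularised logarithms (rlog) in log2 units. That transform shrinks noisy values towards each gene's mean, so its differences understate the change, most for low genes. A positive difference means higher with ARIEL knockdown. Separate cultures are not stated for libraries of a group, so a p-value here covers no more than the spread among these 4 samples, which may be technical. Bulk RNA also cannot tell fewer cells of a kind from less RNA per cell.

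The locus XLOC_005968, which background knowledge of the study rather than the table links to ARIEL, stood at 10.58 and 10.55 in the ARIEL knockdown libraries and at 12.02 and 11.91 in the control libraries. Both knockdown libraries were below both control libraries, by -1.40 ± 0.04 (SE; limma, adjusted p = 1.22e-249). All 5 markers of the T-ALL line examined (CD3D, CD3E, CD28, LCK and TAL1) lay between 13.47 and 16.77 in every library. TAL1 stood at 14.97 and 15.00 in ARIEL knockdown libraries against 15.22 and 15.21 in control libraries. CD28 stood at 13.91 and 13.90 against 14.19 and 14.14. In CD3D, CD3E and LCK the groups overlapped. Of 2 B-cell, 2 myeloid and 2 epithelial markers the highest was CD14 at 3.87, and MS4A1, CSF1R, EPCAM and CDH1 were listed at 0. Read totals are not given in the table, so depth is unknown. Differences rose with the GC content of transcripts over all tested genes, from a median of -0.08 in the decile of lowest GC content (median 37.4%) to 0.08 in that of highest (64.8%), and how far this enters the members' differences is given at the end.

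Of the 50 members tested, 27 changed (54.0%): 15 were higher and 12 lower with ARIEL knockdown (limma, adjusted p under 0.05). Over all 14601 genes tested 44.4% were called, 22.1% higher and 22.4% lower, so the members' share stood near the background, with calls in both directions. The members' median difference was 0.03, against 0.00 over all tested genes. Groups did not overlap in 38 of the 50, or 76.0%, against 70.7% of all tested genes. By the adjusted p of the authors' deposited table, 24 of 50 members were called (48.0%, against 39.4% of all genes with an adjusted p). Of these, 14 were higher (background 20.1%) and 10 lower (background 19.3%) in the authors' deposited table. The calls rest on pooling the spread over genes of like level: with each gene's own variance on 2 libraries a group, limma called 0 members, with 21 at an unadjusted p under 0.05. Counts by complex follow.

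**Figure D1:**
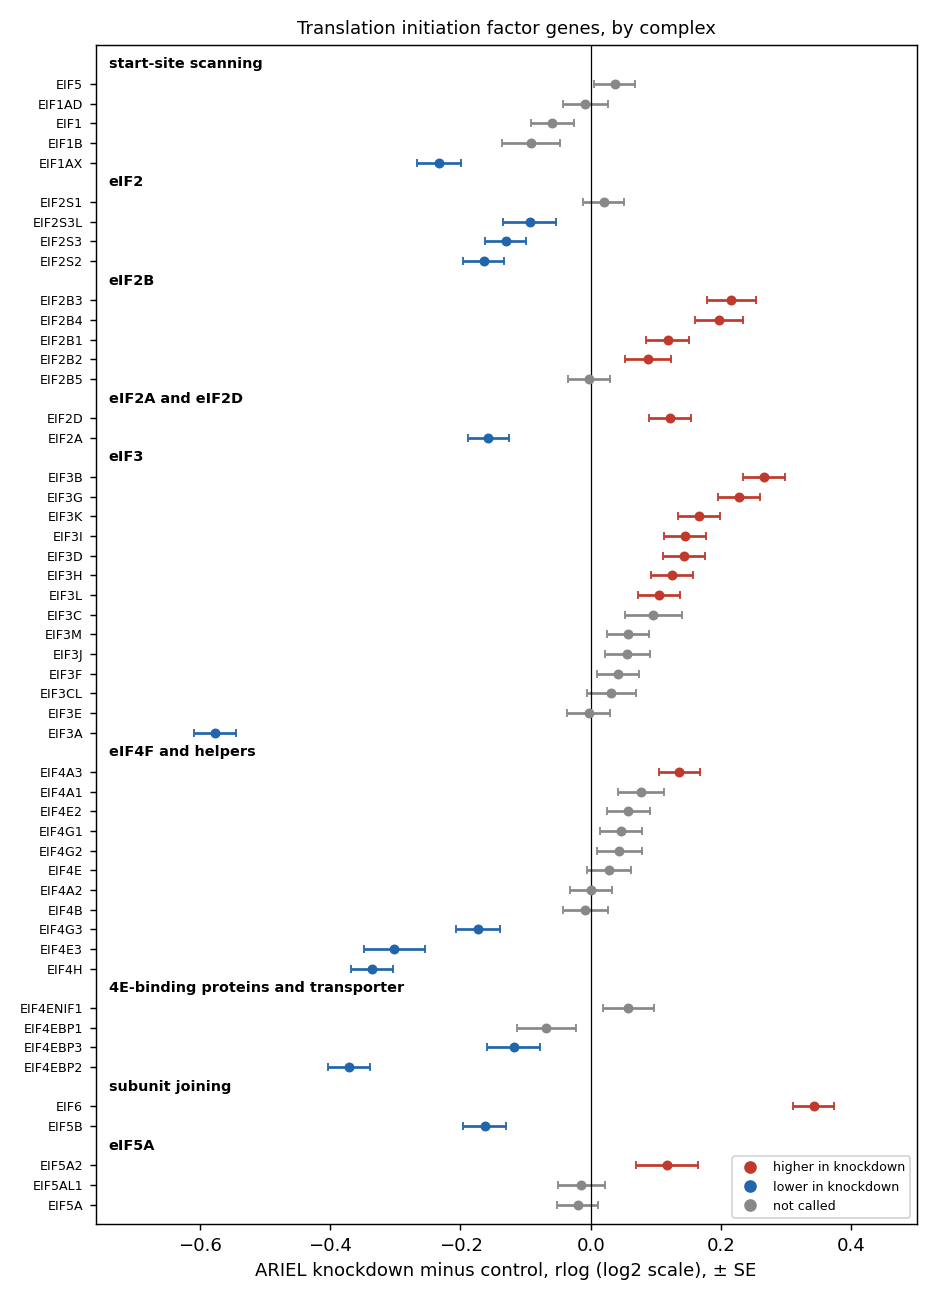
Difference between ARIEL knockdown and control libraries in rlog (log2 scale) for the 50 tested members, grouped by complex; points are limma estimates, bars are ± SE, and colour marks the call at an adjusted p under 0.05. EIF3A lies farthest to the left at -0.58 and EIF6 farthest to the right at 0.34.

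The scaffold eIF3 showed the largest single fall beside a set of small rises. Of its 14 genes 7 rose, 1 fell and 6 were not called, with a median of 0.10. EIF3A encodes the largest subunit, which spans the complex and anchors many of the others. It stood at 14.98 and 15.03 in the ARIEL knockdown libraries and at 15.61 and 15.55 in the control libraries. Both knockdown libraries were well below both control libraries, with a gap of 0.53 between the groups, many times the spread within either. The difference was -0.58 ± 0.03 (SE, 2 libraries each; limma, adjusted p = 7.54e-70), and the authors' deposited table has EIF3A 2.04-fold lower. Leaving out each library in turn gave differences of -0.60 to -0.55.

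The subunits b, g and i, which form a module joined to the end of EIF3A and set beside the mRNA entry channel, all rose. EIF3B, an RNA-recognition-motif and propeller protein, had 15.75 and 15.83 in the ARIEL knockdown libraries against 15.53 and 15.52 in the control libraries. Its difference was 0.27 ± 0.03 (SE, 2 libraries each; limma, adjusted p = 3.95e-15). EIF3G, an RNA-binding subunit, had 15.14 and 15.21 with ARIEL knockdown and 14.95 in each control library, a difference of 0.23 ± 0.03. EIF3I, a propeller protein, had 15.44 and 15.48 against 15.31 and 15.32 in control libraries, a difference of 0.15 ± 0.03. In each of the 3 genes both knockdown libraries lay above both control libraries. Over all tested genes 22.1% were called higher, and groups were apart, in either direction, in 70.7%.

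The other core subunits, those with PCI or MPN domains that build the body of eIF3 in mammals, split between small rises and no call. EIF3K, which is not part of eIF3 in budding yeast, rose by 0.17 ± 0.03 (SE), with 14.51 and 14.52 in ARIEL knockdown libraries and 14.36 and 14.35 in control libraries. EIF3H rose by 0.12 ± 0.03 and EIF3L by 0.10 ± 0.03. The call of EIF3L was lost without ARIEL knockdown replicate 2 (limma, adjusted p = 0.0703). The peripheral EIF3D, which can itself bind the cap of some mRNAs, rose by 0.14 ± 0.03. EIF3E (-0.0030 ± 0.03), EIF3F (0.04 ± 0.03), EIF3M (0.06 ± 0.03) and the loosely bound EIF3J (0.06 ± 0.03) were not called, and in 3 of these 4 the groups overlapped.

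EIF3C could not be judged. It differed by 0.10 ± 0.04 (limma, adjusted p = 0.0620) and its copy EIF3CL by 0.03 ± 0.04 (adjusted p = 0.515). EIF3C was called with libraries centred on their median (limma, adjusted p = 0.0472) and with the replicate block (0.0301). Its difference was 0.17 without control replicate 1 and 0.03 without control replicate 2. In GENCODE 29 transcripts, 92.3% of the 100-base windows of EIF3C, the length of a read, also occur in EIF3CL, so reads of the pair may be split or dropped. EIF3G shares 10.2% of its transcript with exons of P2RY11 on the opposite strand, and EIF3A 0.9% with NANOS1. Whether the counting used strand is not stated, so such reads may not be separable.

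**Figure D2:**
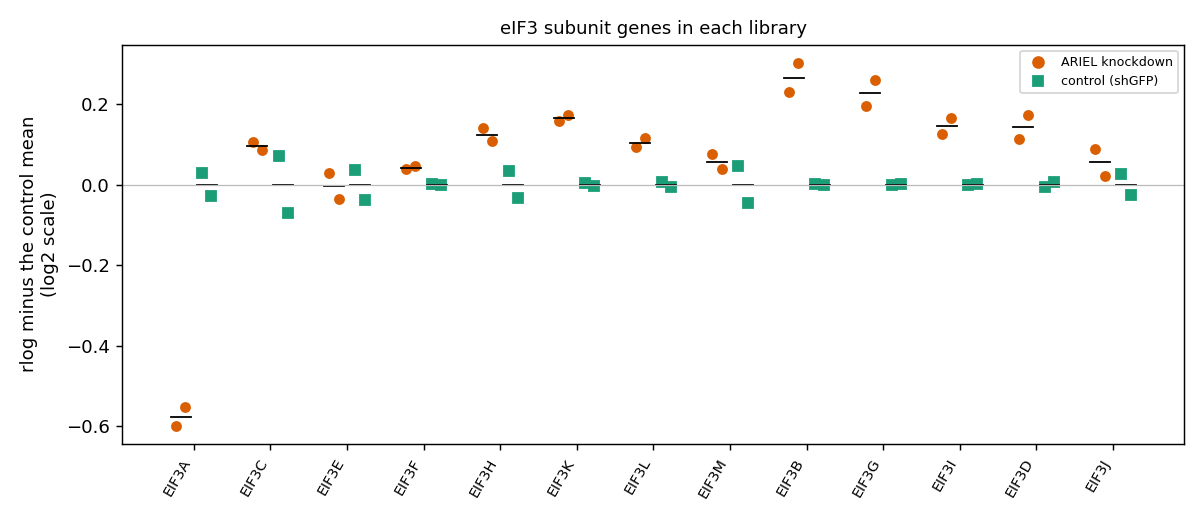
rlog levels of 13 eIF3 subunit genes in each ARIEL knockdown library (circles) and each control library (squares), each shown as the difference from that gene's control mean on the log2 scale; black lines are group means. EIF3A is the gene far below 0, with EIF3B, EIF3G and EIF3K above it.

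In the tRNA-carrying step, 3 of 4 eIF2 genes fell, a copy included, and 4 of 5 genes of its exchange factor eIF2B rose. Over all tested genes 22.4% were lower and 22.1% higher. The calls of the copy EIF2S3L and of EIF2B2 were lost in many alternatives, as given below. EIF2S2, the beta subunit, stood at 14.68 and 14.69 in the ARIEL knockdown libraries and at 14.89 and 14.81 in the control libraries. It differed by -0.16 ± 0.03 (SE, 2 libraries each; limma, adjusted p = 1.64e-06). EIF2S3, the gamma subunit that binds GTP and the initiator tRNA, stood at 14.96 in both ARIEL knockdown libraries and at 15.13 and 15.06 in the control libraries, a difference of -0.13 ± 0.03. In both genes the groups were apart. EIF2S1, the alpha subunit and the site of stress phosphorylation, had 14.53 and 14.50 in ARIEL knockdown libraries against 14.54 and 14.45 in control libraries. These groups overlapped and EIF2S1 was not called (0.02 ± 0.03; limma, adjusted p = 0.648).

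EIF2S3L, a copy of EIF2S3 that shares 18.4% of its 100-base windows with it, stood at 6.76 and 6.75 in ARIEL knockdown libraries and at 6.93 and 6.76 in control libraries. The groups were apart by only 0.0069, and the difference was -0.09 ± 0.04 (limma, adjusted p = 0.0474). The call was lost when ARIEL knockdown replicate 1 (0.116), ARIEL knockdown replicate 2 (0.188) or control replicate 1 (0.869, at a difference of -0.01) was left out. Without control replicate 2 it was kept, at -0.18. It was also lost in the authors' deposited table (0.226) and in 6 further alternatives.

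For eIF2B, 4 of 5 genes rose and 0 fell, with a median of 0.12. EIF2B3, the gamma subunit that forms the catalytic part together with epsilon, had 11.89 and 11.85 in the ARIEL knockdown libraries and 11.66 in each control library, a difference of 0.22 ± 0.04 (SE, 2 libraries each; limma, adjusted p = 1.40e-07). EIF2B4, the delta subunit of the regulatory part, had 12.05 and 12.11 against 11.88 and 11.90 in control libraries and rose by 0.20 ± 0.04. EIF2B1, the alpha subunit through which phosphorylated eIF2 is sensed, rose by 0.12 ± 0.03. In these 3 and in EIF2B2 both knockdown libraries lay above both control libraries. Groups were apart in 70.7% of all tested genes.

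EIF2B5, the catalytic epsilon subunit, had 13.65 and 13.69 in ARIEL knockdown libraries and 13.67 and 13.68 in control libraries, and was not called (-0.0031 ± 0.03). EIF2B2, the beta subunit, rose by 0.09 ± 0.04 (limma, adjusted p = 0.0343). The call of EIF2B2 was lost without ARIEL knockdown replicate 2, at a difference of 0.04 (adjusted p = 0.544), and also without control replicate 1 (0.0684) or control replicate 2 (0.0819) and in the authors' deposited table (0.0590), as well as in 3 further alternatives. In EIF2B1, 21.6% of the transcript overlaps exons of DDX55 on the opposite strand.

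**Figure D3:**
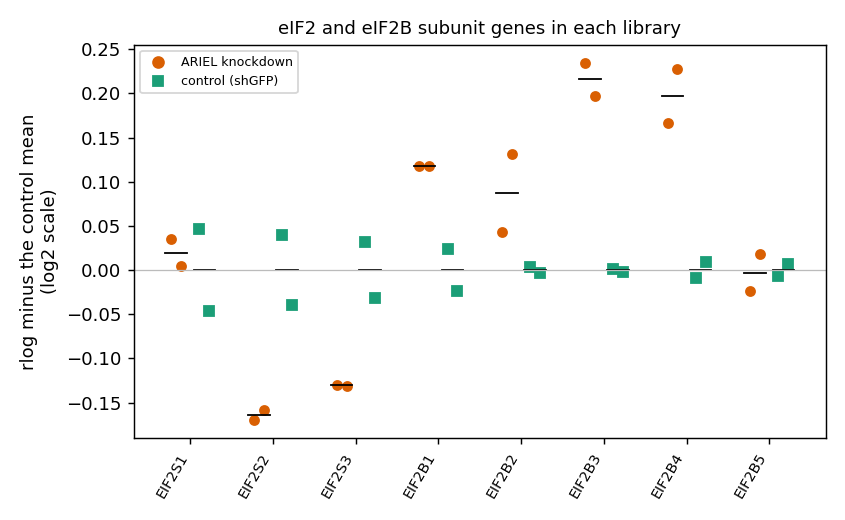
rlog levels of the eIF2 and eIF2B subunit genes in each ARIEL knockdown library (circles) and each control library (squares), as differences from the gene's control mean on the log2 scale; black lines are group means. Knockdown circles lie below the squares for EIF2S2 and EIF2S3 and above them for EIF2B1 to EIF2B4.

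A pair of factors that bring tRNA to the ribosome without eIF2 moved apart. EIF2A, an alternative carrier of initiator tRNA, stood at 13.99 in both ARIEL knockdown libraries and at 14.19 and 14.10 in control libraries, a difference of -0.16 ± 0.03 (SE, 2 libraries each; limma, adjusted p = 5.83e-06). EIF2D, which acts in reinitiation and in recycling of the small subunit, had 13.49 and 13.54 with ARIEL knockdown against 13.40 and 13.39 in control libraries and rose by 0.12 ± 0.03. Without ARIEL knockdown replicate 2 the EIF2D difference was 0.10 and its call was lost (limma, adjusted p = 0.0883).

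Of the 5 scanning factor genes 1 was called, EIF1AX, the X-linked gene of eIF1A. EIF1AX stood at 12.72 and 12.69 in ARIEL knockdown libraries and at 12.998 and 12.87 in control libraries. It differed by -0.23 ± 0.03 (SE, 2 libraries each; limma, adjusted p = 1.32e-10), with both knockdown libraries below both controls although the control libraries differed from each other by more than the knockdown libraries did. A near copy lies on chromosome Y and was not used here. EIF1 (-0.06 ± 0.03) and EIF1B (-0.09 ± 0.04), paralogues that guard the choice of start codon, EIF1AD (-0.01 ± 0.03), a protein with an eIF1A-like domain, and EIF5 (0.04 ± 0.03), which triggers GTP hydrolysis by eIF2, were not called. In other fits EIF5 was called once the GC and length trend was taken out (0.09 ± 0.02; limma, adjusted p = 0.000382), EIF1B with no trend on level (0.0405) and with the replicate block (0.0460), and EIF1 with that block (0.0410). Without the GC and length trend EIF1AX differed by -0.13 ± 0.02.

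The start of an mRNA is itself a feature of translation genes. In mammals the mRNAs of ribosomal proteins and of many translation factors begin with a C and a run of pyrimidines, the terminal oligopyrimidine tract, and mTOR signalling through LARP1 controls their translation. RefSeq promoter windows (build GRCh38.p14) were found by symbol for 42 of the 51 members, of which 41 were tested. In 9 members the annotated start was a C followed by at least 4 letters that are each C or T, read on the gene's strand. That is 22.0% of 41, against 5.44% of 9679 tested genes and 4.04% of all 27305 windows. The 9 did not move together: 3 were higher, 2 lower and 4 were not called, with a median difference of 0.04. Over all tested genes 22.1% were higher and 22.4% lower. Shown are 5 windows of 30 bases, those of the 3 that rose and the 2 that fell, with the pyrimidine run from the start in capitals.
EIF3D: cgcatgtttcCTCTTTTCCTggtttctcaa
EIF3K: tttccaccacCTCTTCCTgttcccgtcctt
EIF2D: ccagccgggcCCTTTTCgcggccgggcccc
EIF2S3: gatttccttcCTCTTTTggcaacatggcgg
EIF2A: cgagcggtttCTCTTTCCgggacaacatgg
The windows lie at chr22:36529147-36529176 (minus strand), chr19:38619178-38619207 (plus), chr1:206612446-206612475 (minus), chrX:24054946-24054975 (plus) and chr3:150546777-150546806 (plus). EIF3D, EIF3K and EIF2D were higher and EIF2S3 and EIF2A lower, so a start of this kind went with both directions. The other 4 with such a start were EIF3F, EIF3M, EIF4A2 and EIF4B. The hexamer CACGTG, which reads the same on both strands and is the E-box letters bound by MYC and related factors, was in the window, from 250 bases before to 50 after the start, of 11 of the 41 members (26.8%, against 10.2% of tested genes). Of these 11, 4 rose and 2 fell, EIF2B3 among the rises and EIF4H among the falls. The median difference of the 11 was 0.04, against 0.02 for all tested genes with the hexamer. MYC itself, named outside the rule, was higher, at 14.59 and 14.61 in ARIEL knockdown libraries against 14.48 and 14.45 in control libraries. Its difference was 0.14 ± 0.03 (SE; limma, adjusted p = 8.88e-05). Whether MYC acts on these genes was not tested.

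Of the 11 cap-complex genes and helpers tested, 1 rose, 3 fell and 7 were not called, with a median of 0.03. That is 36.4% called, 9.1% higher and 27.3% lower, beside 44.4%, 22.1% and 22.4% of all tested genes. EIF4E, the cap-binding protein, had 13.05 in both ARIEL knockdown libraries and 13.07 and 12.97 in control libraries, and was not called (0.03 ± 0.03; limma, adjusted p = 0.532). The main scaffold EIF4G1 (0.05 ± 0.03), the scaffold homologue EIF4G2 that lacks the site for eIF4E (0.04 ± 0.03) and the helicase genes EIF4A1 (0.08 ± 0.03) and EIF4A2 (0.00 ± 0.03) were not called. In the authors' deposited table EIF4A1 was 1.10-fold higher and past the threshold (adjusted p = 0.0169). It was also called by limma with libraries centred on their median (adjusted p = 0.0455), quantile normalization (0.00698) or a level floor of 50 (0.0457). The replicate block (limma, adjusted p = 0.0298) and removal of GC and length trends (0.0130) also gave the call. No filter (0.0587) and no trend on level (0.079) did not. EIF4A1 overlaps the readthrough gene SENP3-EIF4A1 on the same strand in GENCODE 29. EIF4E2, a cap-binding homologue that represses translation, was not called (0.06 ± 0.03), and 33.7% of its transcript lies across from exons of TIGD1.

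EIF4H, an RNA-binding protein that helps the helicase eIF4A unwind mRNA, had the largest fall of this complex on the rlog scale, while in the authors' deposited table that of EIF4E3 was larger. EIF4H stood at 15.44 and 15.48 in the ARIEL knockdown libraries and at 15.81 and 15.78 in the control libraries, a gap of 0.30 between the groups. The difference was -0.34 ± 0.03 (SE, 2 libraries each; limma, adjusted p = 1.21e-23), and EIF4H was 1.51-fold lower in the authors' deposited table. EIF4B, which aids the same helicase and resembles EIF4H in part, had 17.04 and 17.09 in ARIEL knockdown libraries and 17.09 and 17.06 in control libraries. These groups overlapped and EIF4B was not called (-0.01 ± 0.03; limma, adjusted p = 0.871).

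EIF4E3, a cap-binding homologue that binds the cap in a different way from eIF4E, was expressed at a low level. It stood at 7.76 and 7.72 in ARIEL knockdown libraries against 8.02 and 8.06 in control libraries, a difference of -0.30 ± 0.05 (SE, 2 libraries each; limma, adjusted p = 9.21e-10). The fall of EIF4E3 was 1.80-fold by the authors' deposited table. EIF4E3 overlaps the gene AC097634.4 on the same strand in GENCODE 29. EIF4G3, a second full scaffold, stood at 13.09 and 13.10 with ARIEL knockdown and at 13.26 and 13.28 in control libraries, a difference of -0.17 ± 0.03. EIF4A3, a helicase of the exon junction complex rather than of initiation, rose by 0.14 ± 0.03, and its call was lost without ARIEL knockdown replicate 2 (limma, adjusted p = 0.0540).

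Genes of the 4E-binding proteins, which hold eIF4E away from eIF4G until mTOR phosphorylates them, were lower or not called. EIF4EBP2 stood at 13.70 and 13.68 in ARIEL knockdown libraries and at 14.06 in each control library, so that the groups were separated by 0.36 while libraries of a group differed by at most a small part of that. The difference was -0.37 ± 0.03 (SE, 2 libraries each; limma, adjusted p = 5.43e-29), and the authors' deposited table has EIF4EBP2 1.59-fold lower. EIF4EBP1, known as a target of ATF4, had 10.32 and 10.34 with ARIEL knockdown and 10.40 in each control library and was not called (-0.07 ± 0.05; limma, adjusted p = 0.217). With the trend on GC content and length removed it was called, at -0.16 ± 0.04. Its transcript has a GC content of 65.5%.

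EIF4EBP3 stood at 6.75 and 6.76 in ARIEL knockdown libraries against 6.90 and 6.85 in control libraries, a difference of -0.12 ± 0.04 (limma, adjusted p = 0.0104). The call did not survive leaving out ARIEL knockdown replicate 1 (adjusted p = 0.0729) or control replicate 1 (0.110), and in the authors' deposited table the adjusted p was 0.0824. EIF4EBP3 overlaps the readthrough gene ANKHD1-EIF4EBP3, which is listed at 0 in all 4 libraries. EIF4ENIF1, which imports eIF4E into the nucleus, was not called (0.06 ± 0.04).

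**Figure D4:**
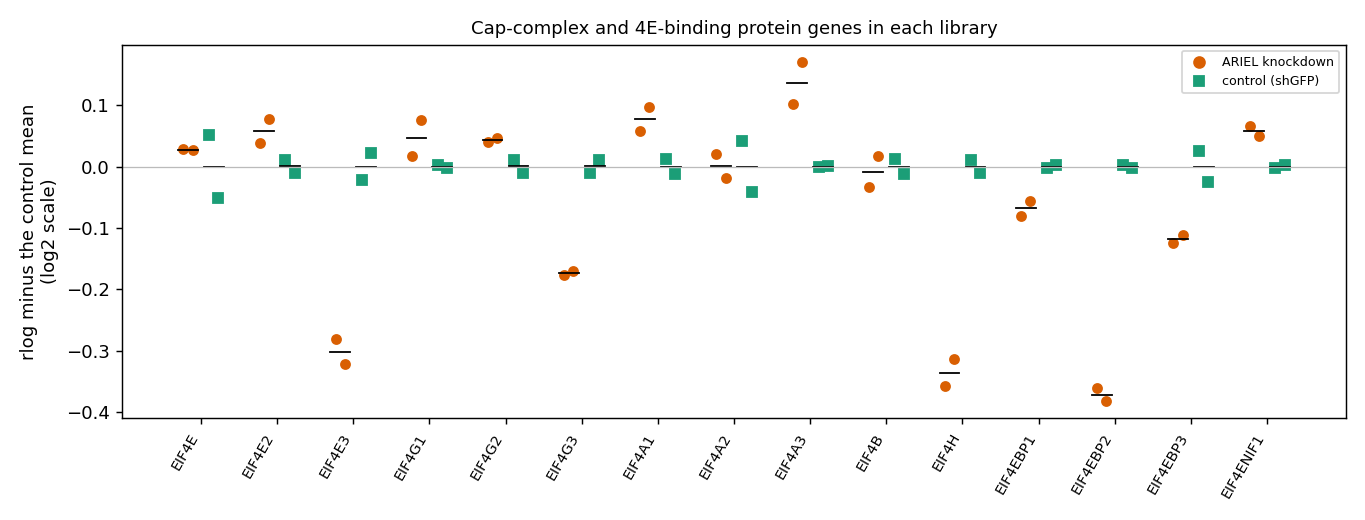
rlog levels of the cap-complex genes and the 4E-binding protein genes in each ARIEL knockdown library (circles) and each control library (squares), as differences from the gene's control mean on the log2 scale; black lines are group means. EIF4EBP2, EIF4H and EIF4E3 lie at -0.37, -0.34 and -0.30, and EIF4E, EIF4A2 and EIF4B lie near 0.

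Short words in the 3′ untranslated region were compared because genes that carry GATGACA or AGATGAC there were lower over the whole table in earlier work on these data, where both words were picked for that. Either word was found in 6 of the 50 members searched (12.0%), beside 13.7% of 12444 genes, on the transcript strand, in 1 GENCODE 29 transcript per gene. Of the 6 carriers 4 fell, where 22.4% of all tested genes were lower, and 2 were not called. Among the 4 is EIF4EBP3, whose call was lost in some alternatives. The share of calls among all genes with a word was not counted. The carriers' 3′ untranslated regions ran from 316 bases (EIF4EBP3) to 9266 (EIF4E3), and length was not adjusted for. The carriers' median difference was -0.21, against 0.04 for the other members. Over all genes searched the medians were -0.06 for carriers and 0.01 for the rest. Since the words were picked on these values, lower values in carriers were favoured from the start. The count of falls and the difference in medians are only a description. The sites in the called carriers follow, with the word in capitals and coordinates on GRCh38.
EIF4EBP2, the site nearer the stop codon: tttatttttaAGATGACtacagaccta
EIF4EBP2, the site farther from it: tagagatttcAGATGACcttaaagatg
EIF4H: cgatgctttcAGATGACctacttacat
EIF4E3, the site nearer the stop codon: aagcatttgtGATGACAtgttcaactt
EIF4E3, the site farther from it: ttaaagattaAGATGACtctttctcac
EIF4EBP3: tccagtgcAGATGACctggcatgtg
They lie at chr10:70423106-70423132 and chr10:70426215-70426241 (plus strand), chr7:74196886-74196912 (plus), chr3:71682778-71682804 and chr3:71681840-71681866 (minus) and chr5:140549263-140549287 (plus). The carriers that were not called were EIF1AD and EIF2S1, each with GATGACA. EIF3A, the member with the largest fall, carried neither word in its 3′ untranslated region, nor did EIF1AX, EIF2A, EIF2S2, EIF2S3, EIF4G3 or EIF5B. The words TGTTGTC and GTTGTCA, picked in the same earlier work for rises, were carried by 8 members (16.0%, against 15.4%). Of these 8, EIF5A2 rose, EIF2S2 and EIF4E3 fell, and EIF2S1, EIF3J, EIF3M, EIF4ENIF1 and EIF5 were not called. EIF4E3 and EIF2S1 carry words of both kinds. The median difference was 0.05 for the 8, against 0.03 for the other members.

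At the joining of the subunits the pair of factors moved in opposite directions. EIF6 keeps the large subunit from joining too early and takes part in its assembly in the nucleolus. It stood at 14.16 and 14.19 in ARIEL knockdown libraries and at 13.82 and 13.85 in control libraries, apart by 0.31. EIF6 had the largest rise of the members, 0.34 ± 0.03 (SE, 2 libraries each; limma, adjusted p = 6.71e-25), and was 1.53-fold higher in the authors' deposited table. GENCODE 29 has a second protein-coding gene, AL121753.1, across EIF6 on the same strand. EIF5B, the GTPase that joins the subunits, stood at 13.09 and 13.13 in ARIEL knockdown libraries against 13.28 and 13.27 in control libraries and differed by -0.16 ± 0.03, and by -0.09 ± 0.02 after the GC and length trend was taken out. In EIF5B, 14.7% of the transcript lies across from exons of REV1.

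Of the 3 eIF5A genes 1 rose (33.3%, against 22.1% of all tested genes) and 2 were not called. EIF5A, which carries the modified amino acid hypusine and helps ribosomes through difficult stretches, had 15.13 and 15.15 in ARIEL knockdown libraries and 15.15 and 15.17 in control libraries, and was not called (-0.02 ± 0.03; limma, adjusted p = 0.642). EIF5A2, its paralogue, rose by 0.12 ± 0.05 (limma, adjusted p = 0.0321), but the call was lost without ARIEL knockdown replicate 1 (adjusted p = 0.121) or 2 (0.133), without control replicate 2 (0.234) and in the authors' deposited table (0.0763). With the trend on GC content and length taken out, EIF5A2 stood at 0.23 ± 0.04 (limma, adjusted p = 5.63e-06) and EIF5A was called in the other direction, at -0.06 ± 0.02 (adjusted p = 0.00848). The copy EIF5AL1 was not called (-0.01 ± 0.04). DOHH and DHPS, the enzymes that make hypusine, both rose, by 0.25 ± 0.04 and 0.15 ± 0.03.

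Other genes of the translation pathway gave a share of calls near the background. Of 43 such genes, in lists made for this comparison, 11 rose and 7 fell (41.9%, against 44.4% of all tested genes), with a median of 0.01. Of 6 genes of kinases and phosphatase subunits that act on eIF2, 1 rose and 3 fell. PPP1R15A, the stress-induced subunit that directs phosphatase to eIF2, rose by 0.43 ± 0.04 (SE, 2 libraries each; limma, adjusted p = 1.00e-28). It had 12.10 and 12.17 in ARIEL knockdown libraries and 11.70 and 11.72 in control libraries. Its constitutive counterpart PPP1R15B differed by -0.11 ± 0.03, a call lost without control replicate 1 (limma, adjusted p = 0.0599). The kinase EIF2AK2, activated by double-stranded RNA, differed by -0.11 ± 0.04, a call lost without ARIEL knockdown replicate 2 (0.346), without control replicate 1 (0.112) and after removal of the GC and length trend (0.108). The third fall was EIF2AK1, the haem-regulated kinase, named after its value was seen, at -0.08 ± 0.03, a call lost whichever of the 4 libraries was left out (limma, adjusted p of 0.0758 to 0.197).

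Around the cap complex 4 of 16 genes rose and 2 fell. MKNK2, a kinase that phosphorylates eIF4E, had 15.26 and 15.33 in ARIEL knockdown libraries against 14.83 and 14.92 in control libraries, a difference of 0.42 ± 0.03 (limma, adjusted p = 4.52e-37). PAIP2B, an inhibitor of the poly(A)-binding protein, rose by 0.32 ± 0.04 and MLST8, a subunit of mTOR complexes, by 0.25 ± 0.03. Named after their values were seen, PABPC4, a poly(A)-binding protein, rose by 0.14 ± 0.03, and PDCD4, an inhibitor of eIF4A, differed by -0.23 ± 0.035. RPS6KB2, a kinase downstream of mTOR, differed by -0.08 ± 0.03, a call lost without ARIEL knockdown replicate 1 (0.276), ARIEL knockdown replicate 2 (0.0934) or control replicate 2 (0.183), and MTOR itself was not called (-0.05 ± 0.03).

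DENR, which works with MCTS1 in reinitiation and recycling and resembles eIF2D, had 13.12 and 13.08 in ARIEL knockdown libraries against 13.49 and 13.38 in control libraries. It differed by -0.34 ± 0.03 (limma, adjusted p = 1.08e-22), while MCTS1, named outside the rule as its partner, was not called (-0.06 ± 0.04). ABCF1, an ATP-binding protein that interacts with eIF2, rose by 0.14 ± 0.03. Of 8 genes with names that start with EEF, 2 rose and 1 fell. EEF1E1 differed by -0.18 ± 0.04, and EEF1A1, the carrier of aminoacyl-tRNA, by 0.15 ± 0.05, a call lost without control replicate 1 (limma, adjusted p = 0.180) or 2 (0.103). EEF2, the translocation factor, differed by 0.10 ± 0.04, a call lost without ARIEL knockdown replicate 2 (0.279), control replicate 1 (0.286) or 2 (0.109), or with the GC and length trend removed (0.114). Quantile normalization gives genes of equal rank in every library the same value, and set both differences to 0 by construction, so it says nothing about either gene. Of 3 termination genes ETF1, the stop-codon reader, rose by 0.09 ± 0.03, a call lost without ARIEL knockdown replicate 2 (0.202) or control replicate 2 (0.336), and the 2 mitochondrial initiation genes were not called.

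The members' differences followed transcript GC content about as those of all genes did. Spearman's rho of the difference on GC content was 0.39 across the 50 members and 0.40 across 12719 tested genes with transcript properties, which share the same 4 libraries. The median GC content was 51.2% for the 15 members that rose, 42.9% for the 12 that fell and 46.4% for the 23 not called. Median transcript lengths were 2005, 3642 and 2887 bases in the same order, against 2989 bases for all genes. With the trend on GC content and length removed from each library, EIF3A differed by -0.53 ± 0.02 (SE), EIF4H by -0.34 ± 0.02, EIF4EBP2 by -0.32 ± 0.02, EIF6 by 0.28 ± 0.02 and EIF3B by 0.24 ± 0.02. In that fit 26 of the 27 calls were made again, in the same direction, with EIF2S3L the exception. Of the called members 3 moved by more than 1.5 times: EIF1AX differed by -0.13 ± 0.02 in place of -0.23, EIF5B by -0.09 ± 0.02 in place of -0.16, and EIF5A2 by 0.23 ± 0.04 in place of 0.12. Another 9 members were then called, in a fit that called 3581 of the 12719 genes higher and 3065 lower. Higher were EIF5 (0.09 ± 0.02), EIF2S1 (0.09 ± 0.02), EIF3J (0.11 ± 0.02), EIF3M (0.13 ± 0.02), EIF4A1 (0.07 ± 0.02), EIF4E (0.10 ± 0.02) and EIF4G2 (0.08 ± 0.02), and lower were EIF4EBP1 (-0.16 ± 0.04) and EIF5A (-0.06 ± 0.02).

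**Figure D5:**
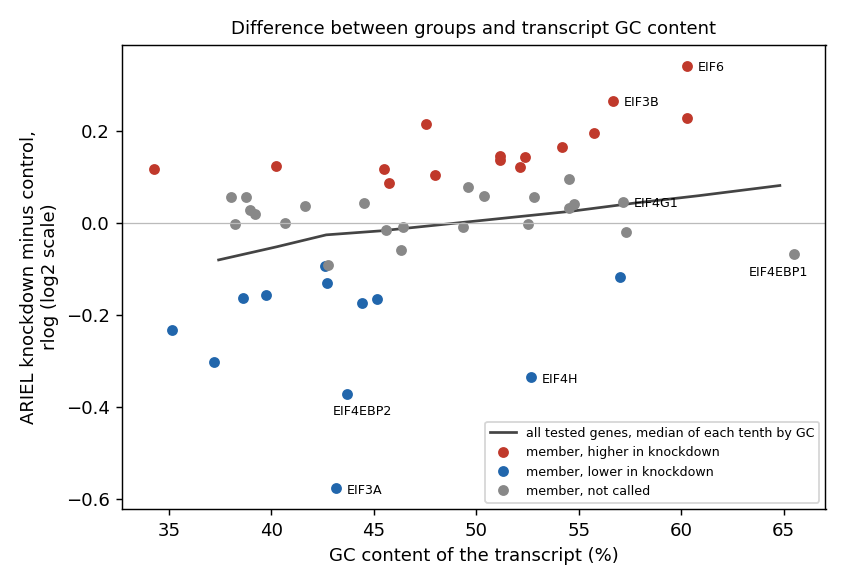
Difference between ARIEL knockdown and control libraries (rlog, log2 scale) against transcript GC content for the 50 tested members, coloured by call; the line joins the medians of all tested genes in deciles of GC content. The line climbs from -0.08 to 0.08. All 27 called members, EIF3A, EIF4EBP2, EIF4H, EIF3B and EIF6 among them, lie farther from 0 than it reaches. So do EIF1B and EIF3C, which were not called.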

How the data were processed

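RNA of 4 Jurkat libraries was read as strand-specific pairs of 100 bases, per the labels' protocols. Build hg19 and the tools DESeq2 1.12.4, HTSeq 0.6.1 and STAR 2.5.2a appear, without roles, in the submitters' processing notes. No source used here gives the annotation or filters. The authors deposited rlog values on the log2 scale for each library. The deposited table also holds, per the file headers, their log2 fold change and its error, a test statistic (a score) and the p-value, raw and adjusted. Depth is unknown. ERCC spike-in was added by cell number, but what the scaling used is not stated.

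limma 3.58.1 (R 4.3.3; lmFit, eBayes with a trend on level, two-sided) was run on the rlog values of all 14601 genes with a mean of at least log2 of 10, with Benjamini-Hochberg adjustment at 0.05. It was tested on simulated data with the same spread for all genes, which cannot show an SE too small for genes that vary more. The prior degrees of freedom came out infinite: genes of a level share a spread and the SE is too small for genes that vary more. Groups and replicate numbers came from titles. Members and lists were chosen with earlier results of these data known. Every tested member may be named, and per other list up to 3 genes with the smallest adjusted p. GENCODE 29 (GRCh38), matched by gene ID, gave gene class, GC content, length, overlaps and 3′ untranslated regions, from 1 transcript per gene (basic set, then RefSeq match, CCDS, principal isoform). No hg19 coordinates are printed. Alternatives tried were library centring, quantile normalization, other filters, no trend, each gene's own variance, a replicate block, the authors' statistics, GC and length trends removed by splines (5 degrees of freedom), and leaving out each library.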

Additional observations from a re-analysis of the deposited data

How the results depend on the processing

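Of the 27 members called, 20 kept their call and direction in all 12 alternatives other than each gene's own variance (10 higher and 10 lower). With each gene's own variance 0 genes were called higher and 0 lower, over all genes, the members and the other translation genes alike, and the lowest adjusted p of a member was 0.0757; 4561 genes, 31.2%, and 21 members had an unadjusted p under 0.05. Where 1 library was left out, the arm with a lone sample was assumed to vary like the other. Over these 4 fits 2004 to 3061 genes were higher and 2221 to 3127 lower, against 3224 and 3264; 10 to 16 members were higher and 10 to 12 lower; 8 to 12 other translation genes were higher and 4 to 8 lower. Over all genes in both directions, and for members higher, the fewest calls came without ARIEL knockdown replicate 2. Members' median difference, 0.03, was 0.0205 with quantile normalization, 0.0701 on the authors' deposited fold changes and 0.0088 to 0.0517 with a library left out. With GC and length trends removed 22 members were higher and 13 lower, beside 3581 and 3065 of the 12719 genes in that fit.

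Replicate numbers share no stated origin. Across genes, deviations of same-numbered libraries correlated at 0.20, and with only 2 numbers this pairs nothing. With the replicate block 18 members were higher and 14 lower, and 11 of the other translation genes were lower, against 7. Over all 14601 genes tested 3722 were then higher and 3704 lower, against 3224 and 3264 without the block.

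No called member changed direction. Of the 23 members not called, 8 did in at least 1 alternative. With quantile normalization EIF1AD was 0.0020, EIF2B5 0.0073 and EIF5AL1 0.0039. With libraries centred on their median EIF2B5 was 0.0026 and EIF3E 0.0028. With trends removed EIF1AD was 0.0001, EIF3E 0.0444, EIF4B 0.0205 and EIF5AL1 0.0156. EIF4A2 was -0.0004 in the authors' deposited table. With a library left out EIF1AD ranged from -0.0351 to 0.0187, EIF2B5 from -0.024 to 0.0179, EIF2S1 from -0.0271 to 0.0665, EIF3E from -0.0404 to 0.0345, EIF4A2 from -0.0403 to 0.0411, EIF4B from -0.034 to 0.0173, EIF4E from -0.023 to 0.0783 and EIF5AL1 from -0.0361 to 0.0074. The causes were not tested.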
